A study of Mus musculus with 7 samples.

Results

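Transcript levels of 9 factors that set epithelial and intestinal identity were measured in mouse tumours given the hyaluronan-degrading enzyme PEGPH20 or vehicle. The 9 genes were a fixed list of symbols (Hnf4a, Cdx1, Cdx2, Gata6, Sox9, Elf3, Ehf, Grhl2 and Esrp1), and all 9 were found among the 47643 gene IDs of the deposited table. The tumours were sgPrkci/Prkcz MTOs, organoids in which Prkci and Prkcz, the genes of the atypical protein kinase C pair, had been targeted by guide RNAs. They were injected in 30% Matrigel under the skin of the right flank of C57BL/6 mice aged 7 weeks and collected when the mice were 13 weeks old. From day 15 the mice received 0.0375 mg/kg PEGPH20 or vehicle 2 times a week for 3 weeks. PEGPH20 tumours 11, 12, 19 and 37 and vehicle tumours 14, 16 and 33 each gave 1 library, and every tumour of both groups carried the same edit, so the comparison is of the enzyme and not of the edit.

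HNF4A, CDX1, CDX2 and GATA6 are DNA-binding factors that establish the gut epithelium and switch on genes of the absorptive enterocyte. SOX9 is a factor of the crypt base, where stem and progenitor cells lie, and of several tissues outside the gut. ELF3 and EHF belong to the epithelium-restricted branch of the ETS family, GRHL2 maintains cell junction genes, and ESRP1 is an RNA-binding protein that selects epithelial splice forms. Loss of such factors, together with gain of the repressors ZEB1 and ZEB2, is a textbook feature of the shift of epithelial cells to a mesenchymal state.

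Values are normalised read counts, that is reads per gene divided by 1 size factor per library. Reads come from transcript 3′ ends, so levels of different genes can be set side by side without a length correction. The PEGPH20 libraries held 4582238 to 6703775 reads and the vehicle libraries 4204388 to 4304108 reads, and a gene with no read could have had up to 1.66 to 2.49 normalised read counts in PEGPH20 libraries and 2.60 to 2.76 in vehicle libraries (3 reads, counting error only). Intestinal epithelium markers had reads in all libraries, at unlike levels. Vil1, an actin bundler of the brush border, averaged 433 ± 49.4 normalised read counts in PEGPH20 tumours and 407 ± 109 in vehicle tumours (SD, n = 4 and n = 3). In the same order, Cdh17 averaged 852 and 839, Gpa33 731 and 821, Krt20 83.6 and 60.6 and Lgals4 70.6 and 14.4. Summed fibroblast markers ranged over 9136 to 23406 in PEGPH20 tumours and 19047 to 48047 in vehicle tumours, with 15 of 15 markers lower on average with PEGPH20. Skeletal muscle markers summed to 209 to 3819 in PEGPH20 tumours and 396 to 16938 in vehicle tumours, with vehicle tumour 16 highest. Skin keratinocyte markers summed to 101 to 508 in PEGPH20 tumours and 157 to 1811 in vehicle tumours, with vehicle tumour 14 highest. The 7 markers of simple epithelium, which include Epcam, Krt8 and Krt18, summed to 14964 to 17769 in PEGPH20 tumours and 16609 to 19994 in vehicle tumours, and 6 of 7 were lower with PEGPH20. In such bulk samples fewer cells of a type and less RNA per cell cannot be told apart, and the part of these other cells in the differences below was not tested.

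The 9 genes covered a wide range of levels, with Hnf4a, Gata6, Cdx2 and Cdx1, called the gut factors below, at the low end. Sox9 was the most abundant, with a mean of 2548 normalised read counts over the 7 libraries, and only 0.630% of the 17132 genes tested had a higher mean. Ehf followed at 1753, then Esrp1 at 382, Elf3 at 378 and Grhl2 at 226. The gut factors were far lower, with Hnf4a at 37.4, Gata6 at 16.5 and Cdx2 at 9.15, and 54.9%, 66.8% and 74.1% of tested genes had a higher mean than these. Cdx1 had no read in any of the 7 libraries. Neighbours in this order were in the same order in 7 of 7 libraries apart from 2 pairs: Gata6 lay above Cdx2 in 6 of 7, and Esrp1 lay above Elf3 in 4 of 4 PEGPH20 libraries and in 0 of 3 vehicle libraries.

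**Figure D1:**
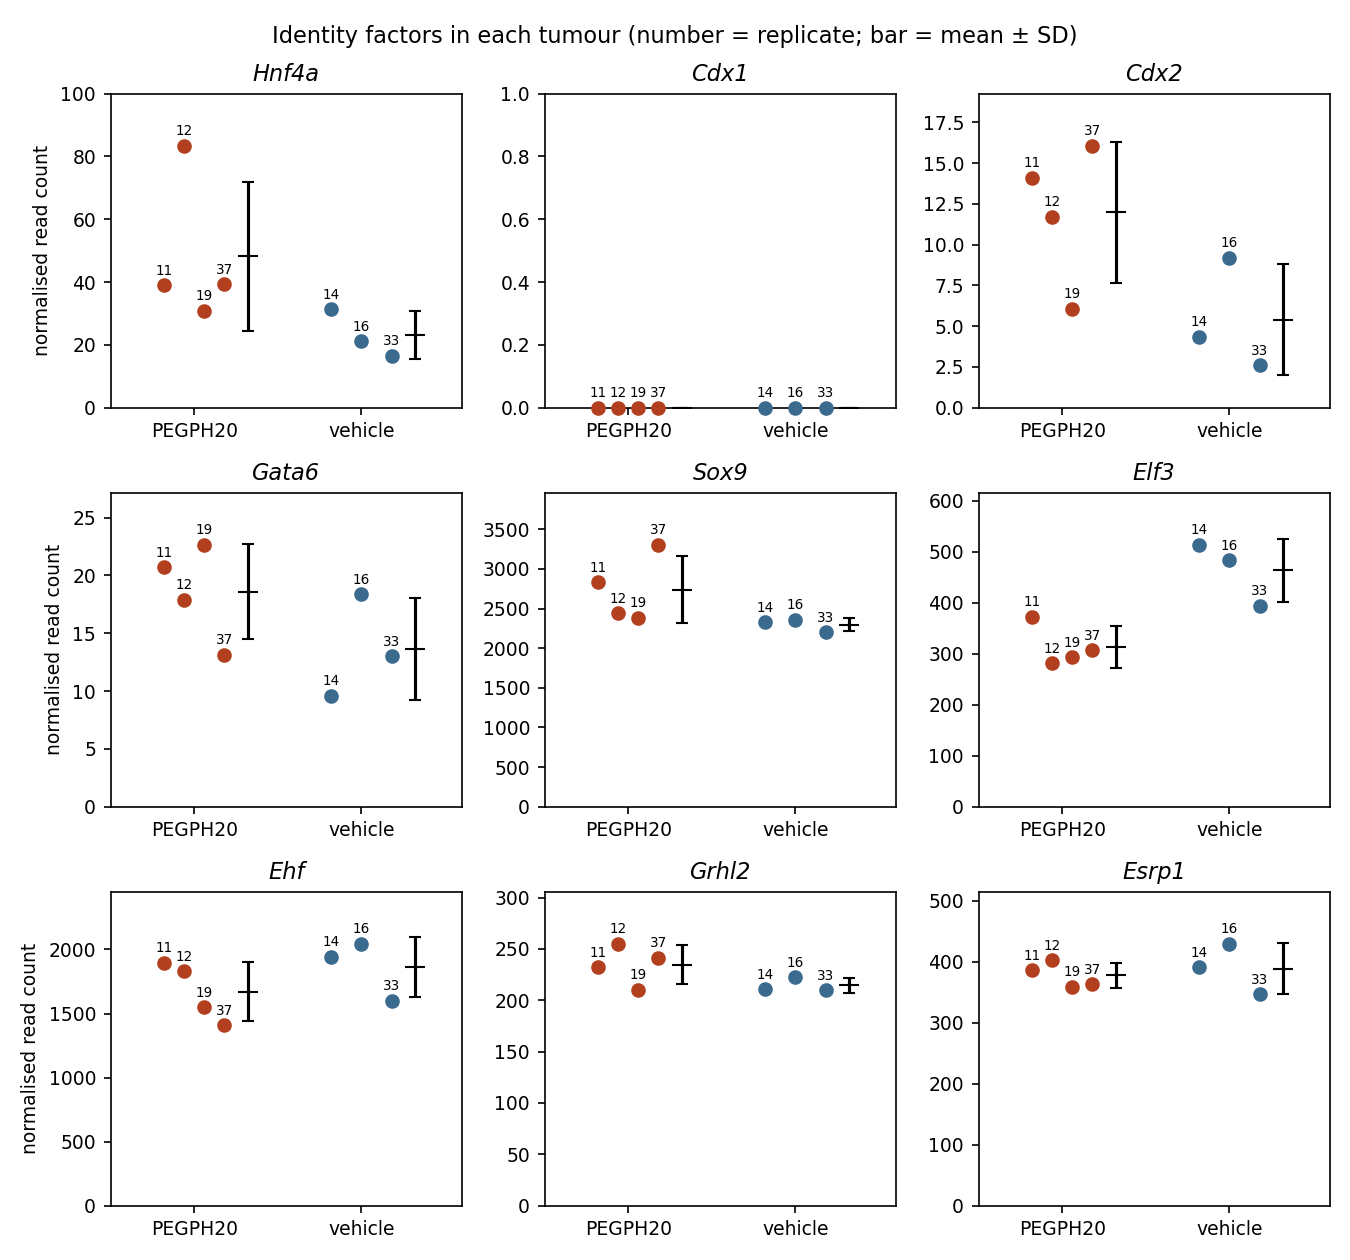
Normalised read counts (y axis, linear, own scale in each panel) of the 9 factors in each tumour, with PEGPH20 tumours left of vehicle tumours, points numbered by tumour and bars at the mean ± SD (n = 4 and n = 3). Elf3 is lower and Sox9 higher in all 4 PEGPH20 tumours than in all 3 vehicle tumours, Hnf4a has 1 high point at 83.4 in PEGPH20 tumour 12, and Cdx1 is at 0 throughout.

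With limma on log2(value + 1) and Benjamini-Hochberg adjustment over all tested genes, 0 of the 8 factors tested had an adjusted p under 0.05, and neither had any other of the 17132 genes (0%; smallest adjusted p 0.218). At an unadjusted p under 0.05, Hnf4a and Cdx2 were higher and Elf3 was lower, 3 of 8 factors, where 12.2% of all tested genes passed (7.58% higher and 4.58% lower). Tumours did not overlap between the groups for Sox9, which was higher, and Elf3, which was lower, where 6.72% of tested genes were higher and 4.45% lower without overlap. Across the 8 factors, 5 had higher and 3 lower means, and their median log2 difference was 0.18, against 0.03 over all tested genes. edgeR on the recovered reads also made 0 calls in 13079 genes (0%; before adjustment, 1704 had p under 0.05). DESeq2 made 77 calls in 8239 genes (0.935%), among them Elf3. The p-values set each group difference against the spread between these tumours, with variances that limma, edgeR and DESeq2 partly share across genes.

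**Figure D2:**
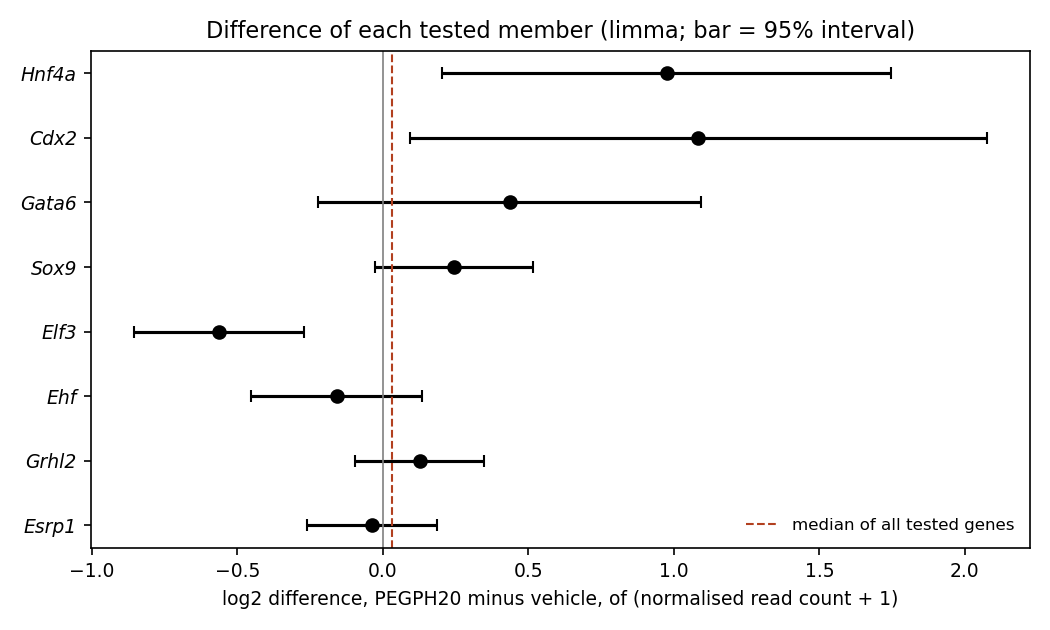
Log2 difference (PEGPH20 minus vehicle, x axis) of each of the 8 tested factors with its 95% interval from limma, and a dashed line at the median of all tested genes, 0.03. The intervals of Hnf4a and Cdx2 lie above 0 and that of Elf3 below 0, while the other 5 include 0.

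Among the gut factors, Hnf4a and Cdx2 had about double the level in PEGPH20 tumours, at few reads and without passing the adjusted test. Hnf4a encodes a nuclear receptor that drives lipid transport and brush border genes. It is transcribed from an upstream and a downstream start, which reads from the shared 3′ end do not separate. To show what distinguishes the starts, the RefSeq windows of 250 bases before to 50 after each are printed (GRCm38.p6, plus strand, chr2:163506607-163506906 and chr2:163546905-163547204), with matches on either strand to the GATA core GATAA, the ZEB and SNAI type E-box CAGGTG and the ETS motif CCGGAAG in capitals.
Hnf4a upstream: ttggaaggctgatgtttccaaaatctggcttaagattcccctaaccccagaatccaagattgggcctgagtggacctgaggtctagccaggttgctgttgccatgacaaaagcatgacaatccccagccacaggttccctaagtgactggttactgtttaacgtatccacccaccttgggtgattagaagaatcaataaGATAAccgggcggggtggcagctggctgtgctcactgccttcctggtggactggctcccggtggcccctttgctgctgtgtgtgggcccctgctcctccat
Hnf4a downstream: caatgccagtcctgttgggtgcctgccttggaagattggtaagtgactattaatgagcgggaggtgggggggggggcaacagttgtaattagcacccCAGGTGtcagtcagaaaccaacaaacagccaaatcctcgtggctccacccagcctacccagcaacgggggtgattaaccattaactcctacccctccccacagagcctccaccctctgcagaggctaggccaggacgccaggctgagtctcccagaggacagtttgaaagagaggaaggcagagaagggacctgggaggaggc
The upstream window held 1 match, GATAA at position -51 from the start. The downstream window held 1 match, CAGGTG at -153. Of 32851 RefSeq promoter windows of this length, 25.4% held GATAA, 20.2% CAGGTG and 8.86% CCGGAAG on either strand, so each match describes letters that many promoters carry.

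Hnf4a had 38.9, 83.4, 30.9 and 39.4 normalised read counts in PEGPH20 tumours 11, 12, 19 and 37, against 31.4, 21.1 and 16.5 in vehicle tumours 14, 16 and 33. The groups overlapped only through PEGPH20 tumour 19, which lay just below vehicle tumour 14, and PEGPH20 tumour 12 stood apart at the top. The means were 48.2 ± 23.8 in PEGPH20 tumours and 23.0 ± 7.62 in vehicle tumours (SD, n = 4 and n = 3), a log2 difference of 0.98 ± 0.34 (SE; 95% interval 0.20 to 1.75) with a limma adjusted p of 0.355. These values rest on 47, 121, 56 and 54 reads in the PEGPH20 libraries and 36, 23 and 19 in the vehicle libraries. The spread within the PEGPH20 group was 17.8 times counting error as a chi-square per degree of freedom, against 2.90 in the vehicle group.

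Lgals4, a gut galectin among the enterocyte genes, was also highest in PEGPH20 tumour 12. It had 38.9, 174, 29.8 and 39.4 normalised read counts in PEGPH20 tumours 11, 12, 19 and 37 and 22.7, 11.9 and 8.68 in vehicle tumours 14, 16 and 33, with no overlap. Its log2 difference was 1.92 ± 0.57 (SE), with a limma adjusted p of 0.322. Krt20, a keratin of differentiated gut epithelium, had 65.5, 161, 84.5 and 23.3 normalised read counts in PEGPH20 tumours and 58.4, 16.5 and 107 in vehicle tumours. Tumour 12 was again highest, and the groups overlapped. Other genes of the list varied. Among PEGPH20 tumours, Cdh17 was highest in tumour 12, at 1154, and Tspan8 was lowest there, at 487.

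Cdx2 encodes the homeobox factor that fixes the intestinal fate of the endoderm. Cdx2 had 14.1, 11.7, 6.08 and 16.1 normalised read counts in PEGPH20 tumours 11, 12, 19 and 37, against 4.36, 9.19 and 2.60 in vehicle tumours 14, 16 and 33. PEGPH20 tumour 19 was the low one of its group and lay below vehicle tumour 16. The means were 11.98 ± 4.32 in PEGPH20 tumours and 5.38 ± 3.41 in vehicle tumours, a log2 difference of 1.08 ± 0.44 (SE; 95% interval 0.09 to 2.08) with a limma adjusted p of 0.393. The counts behind them were 11 to 22 reads in PEGPH20 libraries and 3 to 10 in vehicle libraries. The difference was 0.26 with the mean of the fibroblast markers as a covariate and 0.17 with that of the simple epithelium markers.

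Cdx1, the paralogue that acts with Cdx2 in the mature gut, was listed at 0 in all 7 tumours and was not tested. Cdx4, of the same family, was also at 0 throughout. Gata6, a zinc-finger factor of crypt and colon epithelium, had 20.7, 17.9, 22.6 and 13.1 normalised read counts in PEGPH20 tumours 11, 12, 19 and 37, against 9.59, 18.4 and 13.0 in vehicle tumours 14, 16 and 33. The groups overlapped through vehicle tumour 16, and the spread within each group was close to counting error (1.35 times in PEGPH20 and 1.61 times in vehicle tumours). The log2 difference was 0.44 ± 0.29 (SE, 95% interval -0.22 to 1.09, limma adjusted p 0.556). It was 0.22 without vehicle tumour 14 and 0.66 without vehicle tumour 16. Without the 3 tumours richest in muscle transcripts (PEGPH20 11 and 37, vehicle 16) it was 0.80. That fit kept only PEGPH20 tumours 12 and 19 and vehicle tumours 14 and 33. Gata4, its paralogue of the upper gut, averaged 46.0 ± 4.69 in PEGPH20 tumours and 35.5 ± 3.67 in vehicle tumours without overlap (log2 difference 0.36 ± 0.17, limma adjusted p 0.421). The Gata6 to Gata4 ratio overlapped between the groups, at 0.403 ± 0.0746 in PEGPH20 and 0.387 ± 0.119 in vehicle tumours.

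None of the genes listed for the program of these gut factors passed the limma threshold. They are called enterocyte genes for short. The list also holds goblet cell genes (Muc2, Agr2, Tff3 and Fcgbp) and general epithelial genes (Cdh1, Cldn3 and Cldn7). Of 42 enterocyte genes, 26 were abundant enough to test, 19 were higher and 7 lower on average with PEGPH20, and 0 were called, where 54.0% of all tested genes were higher. At an unadjusted p under 0.05 there were 5 higher and 0 lower, against 7.58% higher and 4.58% lower over all tested genes. Their median log2 difference was 0.32, against 0.03 over all tested genes. It was 0.17 without vehicle tumour 33, 0.15 with the fibroblast covariate, 0.11 without vehicle tumour 14 and 0.08 with the simple epithelium covariate, where 14 genes were higher and 12 lower. Some of the 26 lay under the limits given above for a gene with no read, such as Guca2a at a mean of 1.08 and Slc5a1 at 1.12. With at least 5 CPM in 3 libraries 14 were tested, with 11 higher and 3 lower. DESeq2 gave 16 of the 26 higher and 10 lower, and edgeR 11 of 16 higher and 5 lower. Alpi, Sis, Apob and Apoa4, enzymes and carriers of the mature enterocyte, had no read in any library. Cldn7, a claudin of the tight and lateral junctions, averaged 396 ± 30.4 in PEGPH20 tumours and 257 ± 20.6 in vehicle tumours without overlap (log2 difference 0.62 ± 0.10, limma adjusted p 0.238), and DESeq2 called it with an adjusted p of 0.00749.

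The wider set of 33 other intestinal factors showed no common direction, with 16 of 29 tested genes higher, 13 lower, 0 called by limma and a median log2 difference of 0.03. At an unadjusted p under 0.05 there were 3 higher and 2 lower, against 7.58% higher and 4.58% lower over all tested genes. By direction alone, 54.0% of all tested genes were higher. Klf5, a proliferative crypt factor, averaged 1635 ± 123 normalised read counts in PEGPH20 tumours and 1099 ± 66.1 in vehicle tumours without overlap (log2 difference 0.57 ± 0.09; limma adjusted p 0.238, DESeq2 adjusted p 0.000292). Id1, an inhibitor of helix-loop-helix factors, averaged 183 ± 42.8 in PEGPH20 tumours and 105 ± 9.47 in vehicle tumours (0.77 ± 0.17; limma adjusted p 0.275, DESeq2 adjusted p 0.0481). Atoh1 and Neurog3, which start the secretory and endocrine lines, and Isx and Pdx1 had no read in any library.

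Sox9 (GRCm38 chromosome 11, 112782224 to 112787760, plus strand) was near the top of the expression range in every tumour. It had 2828, 2439, 2383 and 3303 normalised read counts in PEGPH20 tumours 11, 12, 19 and 37, against 2324, 2357 and 2203 in vehicle tumours 14, 16 and 33. The groups did not overlap, but PEGPH20 tumour 19 lay only just above vehicle tumour 16, and the groups overlapped once libraries were scaled by DESeq2, TMM or upper-quartile factors. The means were 2738 ± 425 in PEGPH20 tumours and 2295 ± 81.3 in vehicle tumours, a log2 difference of 0.24 ± 0.12 (SE; 95% interval -0.03 to 0.51) with a limma adjusted p of 0.452. The difference was 0.15 without PEGPH20 tumour 37, 0.06 with the fibroblast covariate and 0.10 with the simple epithelium covariate. It was 0.09 without the 3 tumours richest in muscle transcripts, a fit that kept only PEGPH20 tumours 12 and 19 and vehicle tumours 14 and 33. The vehicle tumours were alike, at 3.26 times counting error, whereas the PEGPH20 tumours spread at 98.4 times. Cartilage and neural crest also use SOX9, and their 9 markers summed to 144 to 186 normalised read counts in PEGPH20 tumours and 121 to 229 in vehicle tumours. Of these, 4 were abundant enough to test, with 1 higher and 3 lower, and the cartilage proteoglycan gene Acan had 28.5 to 125 in PEGPH20 tumours and 24.8 to 138 in vehicle tumours. Matn1 was at 0 in all libraries, Col2a1 reached at most 0.868 and Sox10 was above 0 only in vehicle tumour 33; the part of such cells in the Sox9 values was not tested.

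The stem and crypt genes that accompany Sox9 in the crypt base divided. Of 17 genes 16 were tested, 11 were higher, 5 lower and 0 called by limma, where 54.0% of all tested genes were higher. At an unadjusted p under 0.05, 3 were higher and 1 lower, against 7.58% higher and 4.58% lower over all tested genes. The median log2 difference of the list was 0.17. It turned to -0.13 with the fibroblast covariate, -0.14 with the simple epithelium covariate and -0.00 without vehicle tumour 33. Prom1, a membrane protein of crypt progenitors, averaged 106 ± 35.9 in PEGPH20 tumours and 41.1 ± 16.6 in vehicle tumours without overlap (1.35 ± 0.32; limma adjusted p 0.286, DESeq2 adjusted p 0.0206). Cd44, a surface receptor for hyaluronan, the substrate of PEGPH20, averaged 5553 ± 168 in PEGPH20 tumours and 7072 ± 201 in vehicle tumours without overlap (-0.35 ± 0.09; limma adjusted p 0.302, DESeq2 adjusted p 0.000326). Olfm4, a marker of small intestinal stem cells, had no read in any library.

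Elf3 had the smallest unadjusted p of the 8 tested factors, and it was lower with PEGPH20. Its gene lies on GRCm38 chromosome 1 from 135253575 to 135258568 on the minus strand. Its RefSeq window (GRCm38.p6, chr1:135258423-135258722) is shown because ZEB and SNAI repressors bind E-boxes of the type CAGGTG. The window held 1, read as CACCTG on this strand at position -140, and none of the other motifs searched. Of all RefSeq promoter windows of this length, 20.2% held CAGGTG on either strand.
Elf3: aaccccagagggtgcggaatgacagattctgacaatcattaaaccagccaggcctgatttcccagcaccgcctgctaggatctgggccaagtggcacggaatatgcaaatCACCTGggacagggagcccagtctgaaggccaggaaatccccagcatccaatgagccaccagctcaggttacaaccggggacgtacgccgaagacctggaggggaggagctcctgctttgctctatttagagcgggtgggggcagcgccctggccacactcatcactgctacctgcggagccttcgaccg
Elf3 had 373, 281, 293 and 306 normalised read counts in PEGPH20 tumours 11, 12, 19 and 37, against 513, 483 and 394 in vehicle tumours 14, 16 and 33. All 4 PEGPH20 tumours were below all 3 vehicle tumours, with PEGPH20 tumour 11 and vehicle tumour 33 closest to each other. The means were 313 ± 41.0 in PEGPH20 tumours and 464 ± 62.2 in vehicle tumours, a log2 difference of -0.56 ± 0.13 (SE; 95% interval -0.85 to -0.27). Its limma adjusted p was 0.279 (rank 99 of 17132 by p), that of edgeR 0.261 and that of DESeq2 0.0209. The groups did not overlap under CPM, DESeq2, TMM or upper-quartile scaling. They overlapped when libraries were scaled to the simple epithelium markers, where the difference was -0.36. That scaling raised genes in general, to a median log2 difference of 0.22 over all tested genes. Vehicle tumour 14, the richest in keratinocyte transcripts, had the highest Elf3, and without it the difference was -0.49.

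Ehf, the closest relative of Elf3 among the 9, lies on GRCm38 chromosome 2 (103263433 to 103303278, minus strand). It had 1898, 1831, 1547 and 1408 normalised read counts in PEGPH20 tumours 11, 12, 19 and 37, against 1944, 2044 and 1600 in vehicle tumours 14, 16 and 33. The groups overlapped widely, with low tumours in both. The means were 1671 ± 232 in PEGPH20 tumours and 1863 ± 233 in vehicle tumours (log2 difference -0.16 ± 0.13, SE; 95% interval -0.45 to 0.14; limma adjusted p 0.629). Set against Ehf in the same library, Elf3 was at 0.196, 0.154, 0.189 and 0.218 in PEGPH20 tumours and 0.264, 0.237 and 0.246 in vehicle tumours, with no overlap. Set against Esrp1, it was at 0.966, 0.699, 0.815 and 0.845 in PEGPH20 tumours and 1.31, 1.13 and 1.14 in vehicle tumours. These ratios do not depend on the scaling of the libraries. They were formed after the values were seen, when Elf3 itself was already without overlap, so they are not separate evidence of its difference. How many other gene pairs have ratios without overlap was not worked out, and no p-value is given for these.

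Grhl2 (GRCm38 chromosome 15, 37233036 to 37363569, plus strand) and Esrp1 (chromosome 4, 11331933 to 11386783, minus strand) had close values in the groups. Grhl2 had 232, 255, 210 and 241 normalised read counts in PEGPH20 tumours 11, 12, 19 and 37, against 211, 222 and 210 in vehicle tumours 14, 16 and 33. The vehicle tumours were no further apart than counting error (0.247 times), and the PEGPH20 tumours spread at 2.46 times. The means were 235 ± 18.7 in PEGPH20 tumours and 214 ± 6.91 in vehicle tumours, a log2 difference of 0.13 ± 0.10 (SE; 95% interval -0.10 to 0.35; limma adjusted p 0.612). Its exons share 169 bases with the opposite-strand gene Gm16136, which had 43.4 to 85.5 normalised read counts, and the split of reads between them is uncertain without a stated strand setting. Opposite-strand genes that share exon bases with Elf3, Esrp1 and Gata6 reached at most 0.730, 0.868 and 2.92 normalised read counts. Grhl1, the paralogue of skin and kidney epithelium, averaged 126 ± 15.1 in PEGPH20 tumours and 100.3 ± 9.29 in vehicle tumours (0.32 ± 0.13, limma adjusted p 0.394).

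Esrp1 had 386, 402, 359 and 363 normalised read counts in PEGPH20 tumours 11, 12, 19 and 37, against 391, 429 and 346 in vehicle tumours 14, 16 and 33. The PEGPH20 values all lay between the lowest and the highest vehicle value. The means were 378 ± 20.5 in PEGPH20 tumours and 389 ± 41.5 in vehicle tumours, a log2 difference of -0.04 ± 0.10 (SE; 95% interval -0.26 to 0.19; limma adjusted p 0.905), which was 0.04 without vehicle tumour 16. Esrp2, the second splicing regulator of the pair, averaged 85.7 ± 10.2 in PEGPH20 tumours and 68.2 ± 16.9 in vehicle tumours. The Esrp1 to Esrp2 ratio was 4.44 ± 0.503 in PEGPH20 tumours and 5.83 ± 0.797 in vehicle tumours, with overlap. Counting all 15 paralogues of the 9 factors, 10 were tested, 7 were higher, 3 lower and 0 called by limma, where 54.0% of all tested genes were higher. At an unadjusted p under 0.05 there was 1, Grhl1, which was higher, against 7.58% higher over all tested genes. The median log2 difference of the paralogues was 0.33, and it became -0.00 with the fibroblast covariate.

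The epithelial genes that GRHL2, ELF3, EHF and ESRP1 maintain showed no common direction. All 39 were tested, 16 were higher, 23 lower and 0 called by limma, where 54.0% of all tested genes were higher. The median log2 difference of the list was -0.02. It became 0.19 when libraries were scaled to the simple epithelium markers, where the median of all tested genes was 0.22. Epcam, Krt8, Krt18, Krt19, Cdh1 and Cldn4 stand both in this list and among those markers. That scaling therefore sets the list partly against itself. With the values as deposited, 5 were higher and 4 lower at an unadjusted p under 0.05, against 7.58% higher and 4.58% lower over all tested genes. Within the list, Cldn7 was among the higher genes, whereas Jup, the plakoglobin of adherens junctions and desmosomes, averaged 178 ± 18.6 normalised read counts in PEGPH20 tumours and 287 ± 25.3 in vehicle tumours without overlap (-0.69 ± 0.11; limma adjusted p 0.238, DESeq2 adjusted p 0.000478).

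Of 20 mesenchymal genes set against this program, 18 were lower and 2 higher with PEGPH20, where 54.0% of all tested genes were higher. By limma 0 were called, and 5 were lower at an unadjusted p under 0.05, against 4.58% lower over all tested genes. The median log2 difference of the mesenchymal genes was -0.33, and it was -0.01 with the fibroblast markers as a covariate. Vim, the intermediate filament of mesenchymal cells, averaged 1058 ± 202 normalised read counts in PEGPH20 tumours and 1545 ± 268 in vehicle tumours without overlap (-0.55 ± 0.17, limma adjusted p 0.325). Rbfox2, a splicing factor of mesenchymal isoforms, averaged 311 ± 25.7 in PEGPH20 tumours and 395 ± 42.3 in vehicle tumours without overlap (-0.34 ± 0.11, limma adjusted p 0.340). The repressor Zeb1 averaged 91.4 ± 19.3 in PEGPH20 tumours and 111 ± 21.5 in vehicle tumours, and Zeb2 averaged 197 ± 28.7 in PEGPH20 tumours and 248 ± 37.9 in vehicle tumours.

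**Figure D3:**
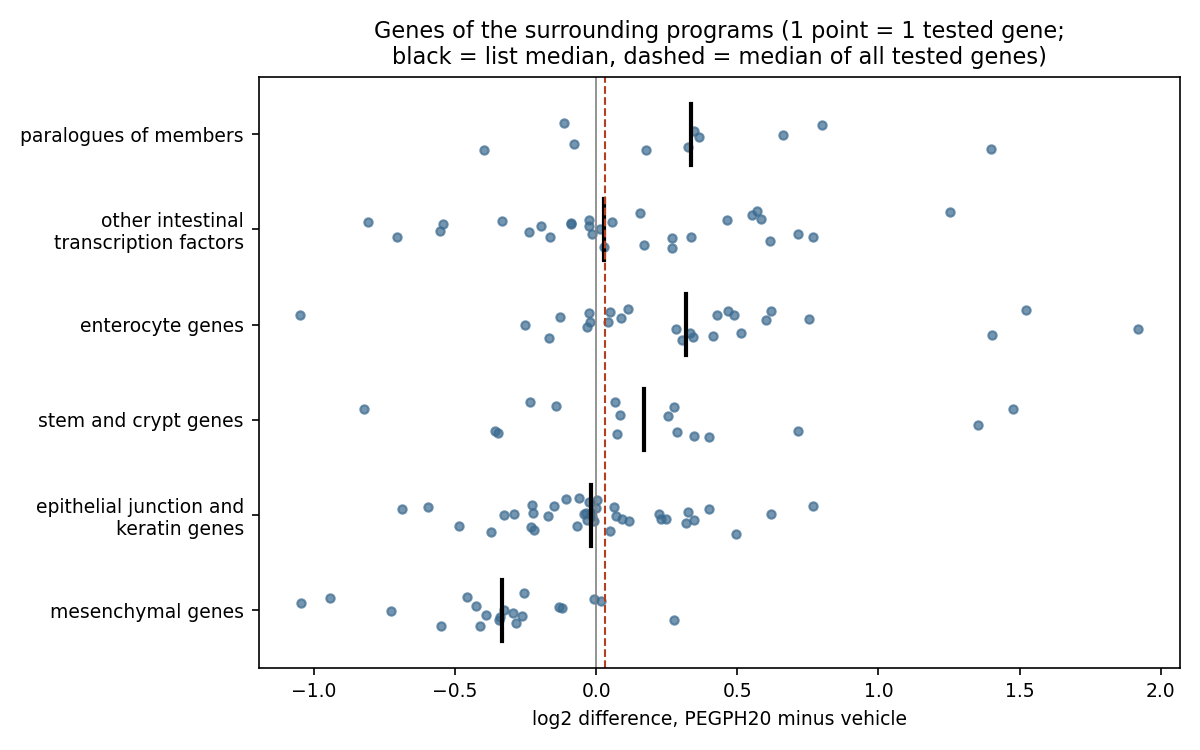
Log2 difference (PEGPH20 minus vehicle, x axis) of each tested gene in 6 lists around the factors (rows), with the median of each list in black. The enterocyte list has a median of 0.32 and the mesenchymal list of -0.33, while the epithelial list is centred at -0.02 with genes on both sides.

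Because 6 of the 7 simple epithelium markers had lower means in PEGPH20 tumours, each factor was also expressed relative to the mean log2 level of these markers in its own library. Most of these markers also stand in the list of genes that GRHL2, ELF3, EHF and ESRP1 maintain. They moved apart, with log2 differences of 0.30 for Cldn3, -0.03 for Cdh1 and -0.49 for Cldn4. Their mean is therefore not a measure of epithelial content alone. Scaling to these markers raised genes in general: 75.1% of all tested genes were higher with PEGPH20, with a median log2 difference of 0.22. Of those with an unadjusted p under 0.05, 92.5% were higher. Relative to these markers, Hnf4a was higher in all 4 PEGPH20 tumours than in all 3 vehicle tumours, by 1.18 on the log2 scale. Its two-sided exact permutation p was 0.0571, where 0.0286 is the smallest possible. On this scaling 12% of all tested genes were higher and 1.14% lower without overlap. Cdx2 differed by 1.29, Gata6 by 0.64 and Sox9 by 0.45, each with an exact permutation p of 0.0857 and overlapping groups. Elf3 differed by -0.36 and Grhl2 by 0.33, each with an exact permutation p of 0.114. Esrp1 differed by 0.17 (exact permutation p 0.286) and Ehf by 0.04 (exact permutation p 0.886). None of the 8 values passed 0.05 before any adjustment, and limma on the same scaling gave adjusted p-values of 0.224 for Hnf4a, 0.280 for Elf3 and 0.241 for Sox9, where 17.6% of genes had an unadjusted p under 0.05.

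The genes with profiles most like those of the 5 abundant factors were found by the root-mean-square difference of centred log2 values over the 7 libraries, among 8518 genes. Elf3 lay closest to Zfp703, at 0.11, followed by Eif4a2 at 0.13 and Spred2 at 0.14, against a median of 0.38 over all genes compared. Sox9 lay closest to Ndufaf3, Ubac2 and Ebna1bp2, at 0.04 to 0.05 against a median of 0.24. Ehf lay closest to Stam2, Cdkn2d and Mindy2, Grhl2 to Unc119b, Capn7 and Rela, and Esrp1 to Snrpe, Rnf181 and Sft2d2. The nearest of so many genes lies under the median by construction. Each factor's own root-mean-square spread about its mean was 0.32 for Elf3, 0.19 for Sox9, 0.18 for Ehf and 0.10 for Grhl2 and for Esrp1. Grhl2 and Esrp1 varied little, so their nearest genes are also genes that varied little.

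**Figure D4:**
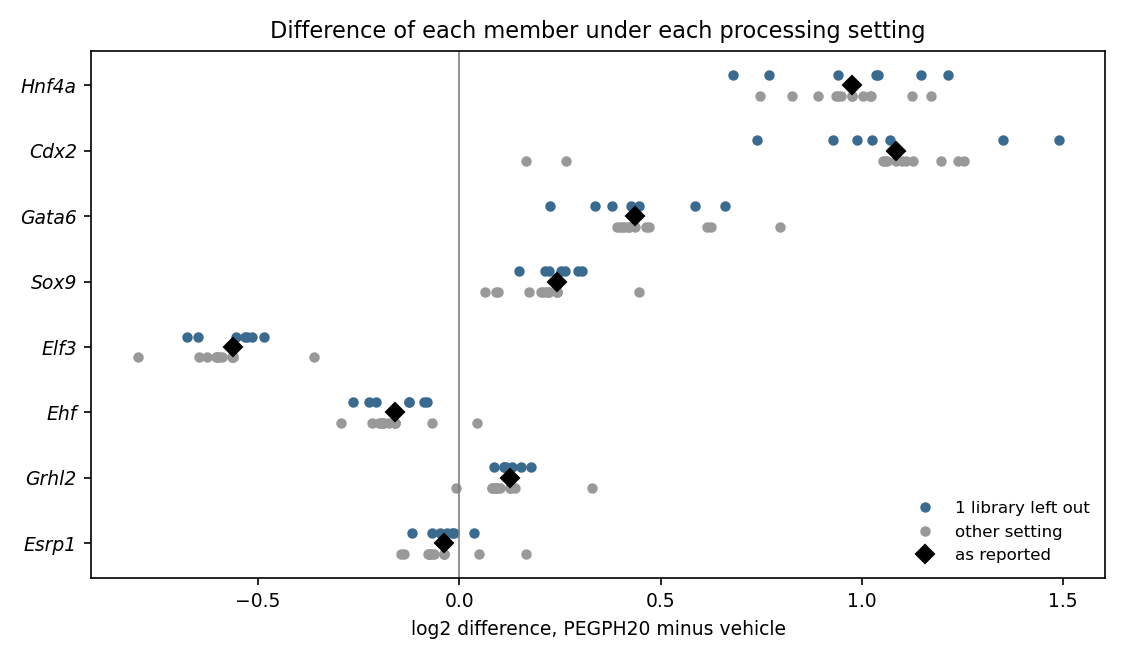
Log2 difference (PEGPH20 minus vehicle, x axis) of each tested factor as reported (black), with each tumour left out in turn (blue) and under other scalings, tests, filters and covariates (grey). Elf3 stays below 0, from -0.80 to -0.36, and Hnf4a above 0, from 0.68 to 1.21, while Ehf, Grhl2 and Esrp1 have values on both sides of 0.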

How the data were processed

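A QuantSeq 3′ kit, which yields about 1 fragment per transcript, turned 200 ng of tumour RNA into each library, and 75 bases were read from a single end, per the labels' protocols. Per the submitters' processing notes reads were placed on GRCm38; how they were aligned, counted and assigned to strands is not given in the sources used here. What the authors deposited was 1 table with a normalised signal per gene and library. Every value was a whole multiple of 1 step per library (tolerance 0.01 of a read), so whole reads were recovered for 100% of values and used for the alternatives.

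The test used limma 3.58.1 (R 4.3.3) with an intensity trend on log2(value + 1), keeping genes whose mean value was 1 or more, with treatment as the only term, and Benjamini-Hochberg adjustment over all tested genes with a threshold of 0.05. A fold change on this scale understates the change of low genes. edgeR 4.0.16 and DESeq2 1.42.0 on recovered reads, other scalings, filters, covariates and left-out tumours were alternatives. The limma fit was also run on simulated counts, with the same dispersion for every gene and larger changes than most of the factors showed. That run does not show how often changes of the factors' size would be found. The factors and gene lists were chosen with earlier results of these data known, so no list was tested and no p was adjusted over a list. Genes named from a pathway list are its 2 with the smallest unadjusted p. Cell type markers such as Vil1, Gpa33, Acan, Col2a1 and Sox10 come from a separate marker list. Those printed were picked after their values were seen. So were Krt20, Cdh17, Tspan8, Guca2a, Slc5a1, Esrp2, Zeb1, Zeb2 and genes at 0. Symbols were given for 47224 of the IDs; gene positions come from GENCODE M21. Promoter windows come from RefSeq, matched by symbol for 3 of the 9 factors. The window of Cdx2, not printed above, held none of the motifs searched.

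A chi-square over genes found every pair of libraries of a group further apart than counting error (6.59 to 16.3 per degree of freedom), so no library was counted as a repeat. Mitochondrial genes held 11.0 to 12.3% of reads in PEGPH20 libraries and 11.0 to 11.8% in vehicle libraries. Prkci had 144 to 204 normalised read counts in PEGPH20 tumours and 182 to 267 in vehicle tumours, while Prkcz had 8.96 to 21.5 in PEGPH20 tumours and 6.94 to 13.9 in vehicle tumours; both groups carry the edit, and 3′ reads outside an edited site do not check it.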

Additional observations from a re-analysis of the deposited data

Results flagged for a closer look

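Of 19 genes examined in the 4 PEGPH20 tumours, 2 had 1 tumour far from the others by Dixon's 95% criterion, which chance meets in about 1 of 20 groups, and both were in PEGPH20 tumour 12. Hnf4a was 83.4 normalised read counts in that tumour and 30.9 to 39.4 in the other PEGPH20 tumours, against 16.5 to 31.4 in vehicle tumours. Lgals4 was 174 normalised read counts there and 29.8 to 39.4 in the other PEGPH20 tumours, against 8.68 to 22.7 in vehicle tumours. Without PEGPH20 tumour 12 the log2 difference of Hnf4a was 0.68.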

How the results depend on the processing

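DESeq2 called 77 genes and 1 factor, Elf3 (log2 difference -0.60, adjusted p 0.0209); it gave no adjusted p for Hnf4a, Cdx2 and Gata6. Leaving out 1 tumour in turn gave 0 to 3 calls over all genes with limma, the 3 (H2-M2, Psat1 and Tmem158) without vehicle tumour 16, and none among the factors. With libraries scaled to the simple epithelium markers, chosen after seeing the data, the log2 difference turned to 0.044 for Ehf and 0.17 for Esrp1, both under the 0.22 median of all tested genes. With the simple epithelium covariate that of Grhl2 turned to -0.0075. That of Esrp1 ranged from -0.12 to 0.036 with 1 tumour left out, above 0 without vehicle tumour 16, and turned to 0.048 without the 3 tumours richest in muscle transcripts, also chosen after seeing the data. The cause was not tested in any of these. Hnf4a, Sox9 and Elf3 kept their sign in 20 of 20 settings and Cdx2 and Gata6 in 19 of 19; the filter of at least 5 CPM in 3 libraries left out both of the last pair. Of genes at an unadjusted p under 0.05, 62.3% were higher as deposited, 50.4% with DESeq2 factors, 54.4% with TMM, 49.3% with upper-quartile factors and 48.0% by edgeR. No paired analysis was possible because the groups share no replicate number. Depth limits Cdx2 and Gata6, at 3 to 41 reads a library.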
